A study of Homo sapiens with 2 samples.

Results

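The genes described here are the Toll-like receptors, the NOD-like receptors and the sensors of foreign nucleic acid, with the adaptors, kinases and transcription factors that act directly below them. They were taken from a list of 41 genes, of which 38 had a probe set that names exactly 1 gene, out of 14232 genes with such a value in all. Where a gene had several such probe sets, the one with the highest mean of both arrays was used. TLR9 and NLRP1 were covered by probe sets that name a second gene as well, and IRAK4 is not analysed here. RNA of 2 established human lines of diffuse large B cell lymphoma, SUDHL6 and HT, was hybridised to Affymetrix exon arrays, 1 array per line. Both lines were untreated and grown in RPMI GlutaMAX medium with fetal bovine serum and penicillin/streptomycin. The labels give no genotype, passage or clone for either line. By its title, the series comes from a study of drug inhibition of the Polycomb complex PRC2, and the labels name no compound for these arrays.

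Innate sensors recognise molecular patterns of microbes. Toll-like receptors sit at the cell surface or in endosomes. They signal to NF-kB through the adaptor MYD88 with IRAK kinases, or through the adaptor TICAM1. NOD-like receptors and the RNA and DNA sensors work in the cytosol, the latter through MAVS or the protein STING to the kinases TBK1 and IKBKE and the interferon regulatory factors. B cells use a part of this equipment, and activating mutations of MYD88 occur in some diffuse large B cell lymphomas. The arrays measured RNA only, and show neither protein nor mutations.

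Values are log2 expression after RMA, so a difference of 1 is a factor of 2. With 1 array per line there was no spread between replicates, and no test or p-value is given. The number of arrays limits the precision of every value. As a guide to the level of genes that are not in use, the 95th percentile of 225 olfactory receptor genes was 3.81 in SUDHL6 and 4.11 in HT, called the dim level here. The difference, SUDHL6 minus HT, lay between -1.03 and 1.26 for the central 95% of those genes, and 17 of the 225 differed by 1 or more. A gene was counted as different where its difference was at least 1 either way and its higher value reached the dim level of that line. A fold is written as "at least" where the dim level had to stand in for a lower value beneath it. Being beneath the dim level is no proof that a gene was silent. In such bulk RNA, fewer expressing cells and less RNA per cell cannot be told apart.

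Few innate sensing genes differed between the lines by the rule above. Of the 38, 3 were counted as higher in SUDHL6 (TLR1, TLR6 and NLRC4), where the same rule counted 3.5% of all 14232 genes, and 2 as higher in HT (TLR4 and IFIH1), where it counted 4.62% of all genes. Together these 5 were 13.2% of the genes described, against 8.12% of all genes, and nothing particular to them is read from so small a count. The same shares of all genes stand beside the counts of the smaller groups below, from which nothing particular is read either. In 28 of the 38 the difference was under 0.5 in size, but 12 of these 28 reached the dim level in neither line, where closeness is no measurement of equality. Of the rest, 15 reached it in both lines and 1 in SUDHL6 alone. The median difference was -0.01, and that of all genes was -0.04. In 13 of the 38, both values lay below the dim level, and in 21 both reached it.

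**Figure D1:**
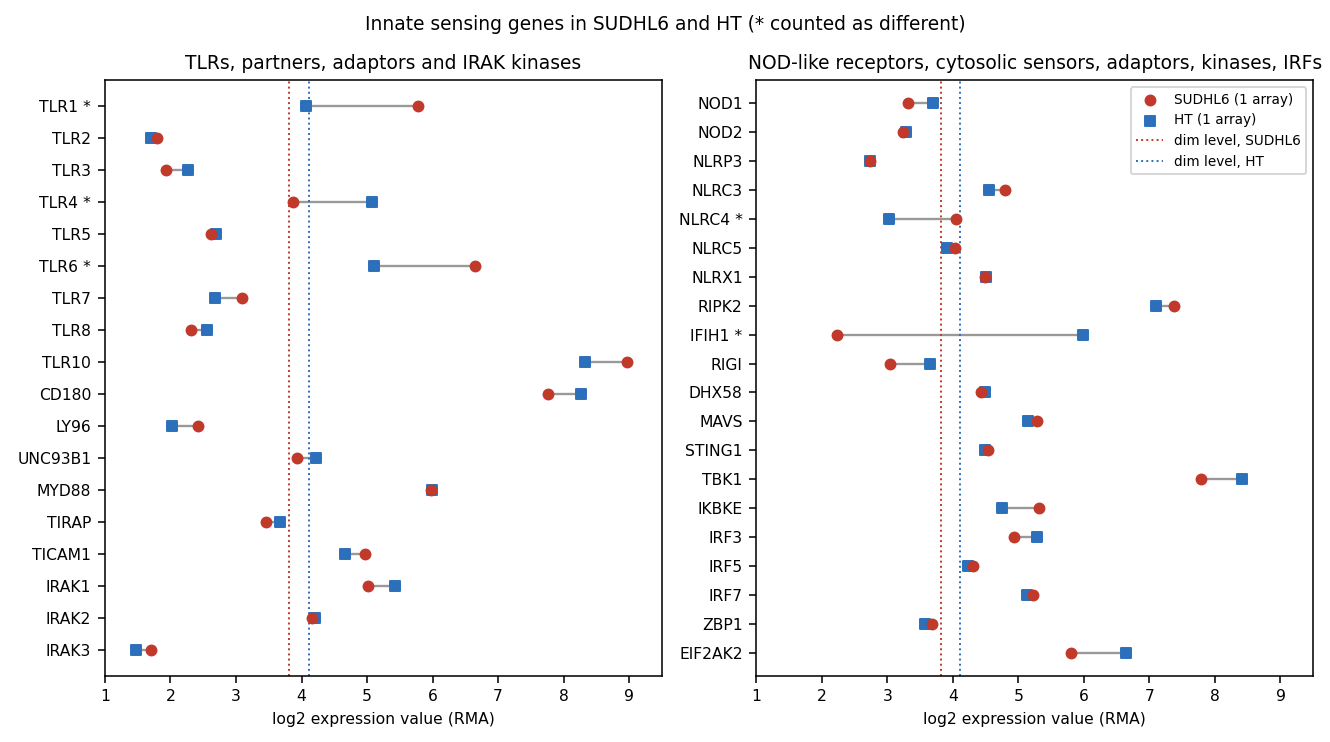
Log2 expression value of each of the 38 innate sensing genes on the SUDHL6 array (red circles) and the HT array (blue squares), joined by a grey line, with the dim level of each line dotted (3.81 and 4.11). An asterisk marks the 5 genes counted as different: TLR1, TLR6 and NLRC4 lie to the right in SUDHL6, TLR4 and IFIH1 in HT, and most other pairs of points nearly coincide.

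Of 11 B lineage markers with a value, all 11 reached the dim level in at least 1 line, among them PAX5 at 7.0 in SUDHL6 and 7.63 in HT and CD79A at 6.47 and 6.58. The lines were not equal in these markers, and 3 were counted as different. MS4A1, the gene of CD20, was 6.01-fold and CD72, a B cell co-receptor, at least 3.49-fold higher in SUDHL6, while EBF1, a transcription factor of early B cells, was 3.12-fold higher in HT. Of 6 germinal centre markers 5 reached the dim level and 2 were counted as different, SERPINA9 for HT, at 8.35 against 3.96, and GCSAM for SUDHL6, at 9.31 against 7.61. Of 6 plasma cell markers 5 reached it and 2 were counted as higher in SUDHL6, IRF4 at 6.65 against 3.93 and TNFRSF17 at 7.16 against 5.90. The part of these B cell differences in the results was not tested. Several of the sensors are best known from myeloid and plasmacytoid dendritic cells, so markers of those cells were read too. Of 10 myeloid markers, 3 reached the dim level (CD68, CST3 and TYROBP), none was counted as different, and CD14, LYZ and CSF1R were below it in both lines. The log2 values of those 10 summed to 34.9 in SUDHL6 and 35.3 in HT. Of 5 plasmacytoid dendritic markers, 2 reached it (PTCRA and SPIB), CLEC4C and LILRA4 did not, and the sums were 19.0 and 20.1. Of 10 T cell markers 4 reached it (CD5, CD7, CD8A and LCK), and of 7 NK cell markers 3 did (NCAM1, NKG7 and GNLY). CD3D, CD3E and CD3G were beneath the dim level on both arrays. None of the plasmacytoid, T cell or NK cell markers was counted as different. LCK came closest, with a difference of -0.97.

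Among the Toll-like receptors and partners that reached the dim level, TLR10, TLR1 and TLR6 had the higher value in SUDHL6. These 3 genes stand next to each other on chromosome 4 and encode related receptors. TLR1 and TLR6 each pair with TLR2 to recognise bacterial lipopeptides, while the ligand of TLR10 is less well defined. TLR1 stood at 5.78 in SUDHL6 and 4.08 in HT, just below the dim level there, and was at least 3.17-fold higher in SUDHL6. TLR6 stood at 6.65 and 5.11, above the dim level in both lines and 2.90-fold higher in SUDHL6. TLR10 was far above the dim level in both lines, at 8.97 in SUDHL6 and 8.33 in HT. Its difference of 0.63 is not counted as different. TLR2, the shared partner, was below the dim level in both, at 1.79 and 1.70. TLR1 and TLR6 are close relatives in sequence, and how far their probes tell them apart was not checked, so each value is uncertain to that extent.

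The genes around the 3 receptors did not all lie on the same side. Of the 10 nearest flanking genes with a value, 5 on each side in the order of RefSeq (assembly GRCh38.p14), 1 was counted as different: TMEM156, at 8.26 in SUDHL6 and 7.10 in HT. The nearest on either side were KLF3, with a difference of 0.63, and FAM114A1, with -0.12, both below the dim level in both lines. RFC1, the farthest on 1 side, differed by 0.79, while WDR19 before it differed by -0.36. The 10 flanking genes had a median of 0.07 and ran from -0.56 to 1.16, with 6 higher in SUDHL6 and 4 lower. By distance alone, the 10 nearest genes of each receptor, the other receptors of the cluster included, had a median of 0.36. Copy number of the region was not measured.

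**Figure D2:**
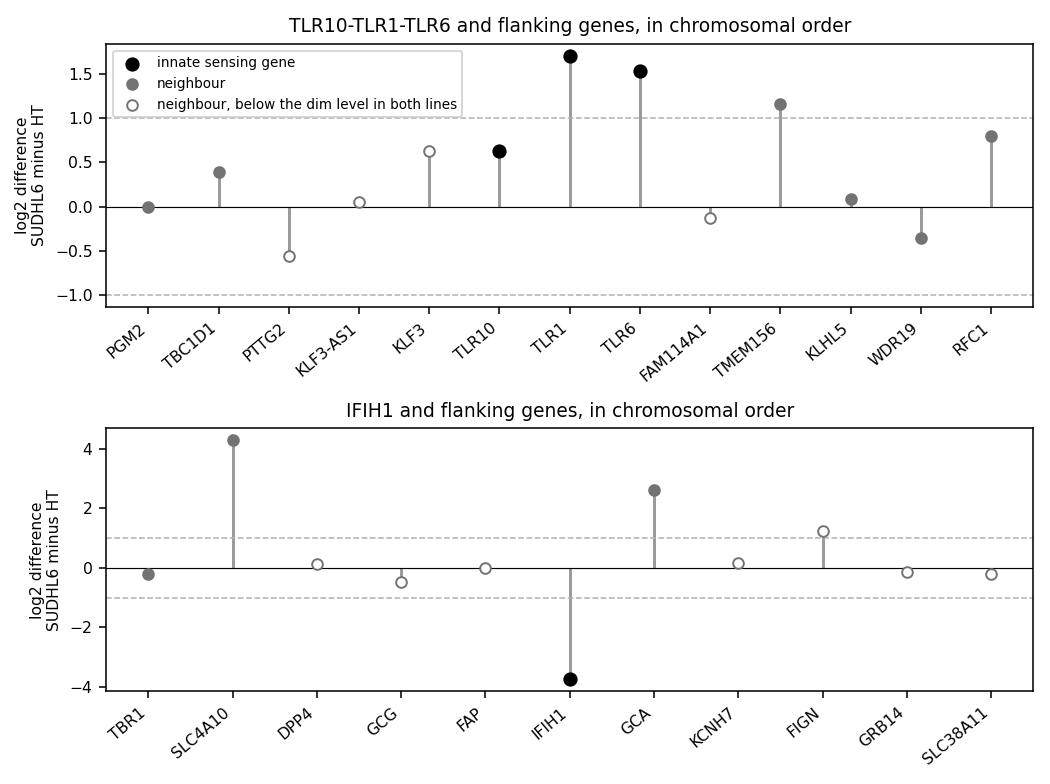
Log2 difference, SUDHL6 minus HT, of TLR10, TLR1 and TLR6 (upper panel) and IFIH1 (lower panel) with the 5 nearest genes with a value on each side, in chromosomal order and not to scale in distance. Black points are the innate sensing genes, open points are neighbours below the dim level in both lines, and dashed lines mark a difference of 1. TLR1 and TLR6 stand highest in their panel, and IFIH1 points down between neighbours of which SLC4A10 and GCA point up.

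TLR4, the receptor for bacterial lipopolysaccharide, was the 1 Toll-like receptor counted as higher in HT. Its value was 3.87 in SUDHL6 and 5.08 in HT, which is 2.32-fold higher in HT, with the SUDHL6 value only just above the dim level. LY96, the small protein that TLR4 needs to bind its ligand, was below the dim level in both lines, at 2.42 and 2.02, and so was CD14, which hands the ligand over, at 3.02 and 2.94. The 10 genes flanking TLR4 on chromosome 9 had a median difference of -0.16, and MEGF9 among them was counted as higher in HT. By sign, 7 of them leaned to HT, 2 to SUDHL6 and 1 to neither. The 2 leaning to SUDHL6, DELEC1 and LINC00474, were dim on both arrays. MEGF9, PSMD5 and FBXW2, all on 1 side of TLR4 and well above the dim level, differed by -1.36, -0.73 and -0.60. Any share of the region in the TLR4 difference was not tested. CD180, a B cell surface receptor related to TLR4, reached the dim level in both lines, at 7.76 and 8.26. Its partner LY86 stood at 6.73 and 7.61, a difference of -0.88, and was picked out after its value was seen. TLR5, the flagellin receptor, was below the dim level in both, at 2.62 and 2.70.

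The receptors of the endosome, which bind nucleic acid, gave no gene counted as different. TLR3, for double-stranded RNA, stood at 1.93 in SUDHL6 and 2.27 in HT. TLR7 and TLR8, for single-stranded RNA, stood at 3.10 and 2.31 in SUDHL6 and at 2.69 and 2.55 in HT. All of these values lie below the dim level. TLR9, the DNA receptor of B cells, had no value of its own. The probe sets it shares with its neighbour TWF2 stood at 5.24 and 5.56 in SUDHL6 and at 5.35 and 5.65 in HT, and how much of that signal belongs to TLR9 cannot be told apart from TWF2. UNC93B1, which carries these receptors to the endosome, was close to the dim level, at 3.93 and 4.22. SLC15A4, an endosomal transporter that TLR7 and TLR9 signalling needs, stood at 7.45 and 7.44, and CNPY3, a chaperone of Toll-like receptors, at 7.45 and 7.0. None of the 9 accessory genes with a value was counted as different.

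The adaptors and IRAK kinases had close values in both lines, with 0 of 6 counted as different and differences from -0.40 to 0.30. MYD88, the adaptor of most Toll-like receptors, stood at 5.98 in SUDHL6 and 6.0 in HT. TICAM1, the adaptor of TLR3 and TLR4, stood at 4.97 and 4.67. TIRAP, which bridges MYD88 to surface receptors, was below the dim level at 3.46 and 3.67. Among the kinases, IRAK1 stood at 5.02 and 5.42 and IRAK2 at 4.15 and 4.21. IRAK3, a kinase-dead inhibitor known mainly from monocytes, was below the dim level in both, at 1.70 and 1.48.

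Below the adaptors, the module of TRAF6, the kinase TAK1 and the IKK complex held genes counted in both directions. Of 18 genes with a value, 4 were counted as higher in HT, where 4.62% of all genes were, and 1 in SUDHL6, where 3.5% were. The median difference was -0.27, and between -0.24 and -0.20 under the 3 other scalings, with the same counts. As the balance of all genes between the lines itself turns with the scaling, nothing particular to the module is read from this. TANK, a scaffold that binds TBK1 and IKBKE, was 3.68-fold higher in HT, at 8.06 against 6.17. CYLD, a deubiquitinase that dampens NF-kB signalling, was 3.02-fold higher in HT, at 6.11 against 4.51. TAB3, a subunit of the TAK1 complex, and CHUK, which encodes the kinase IKK-alpha, were 2.20-fold and 2.19-fold higher in HT. The gene counted in the other direction was IKBKB, which encodes IKK-beta, at 5.96 in SUDHL6 and 4.89 in HT, named after its value was seen. Activators and an inhibitor of NF-kB signalling are found among the genes counted as higher in HT.

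Of 8 genes with a value among the NOD-like receptors and RIPK2, 1 was counted as different, and that by a narrow margin. NLRC4, which assembles an inflammasome on bacterial flagellin and secretion system proteins, stood at 4.05 in SUDHL6 and 3.03 in HT. Its difference of 1.02 passed the threshold by little, its SUDHL6 value lay below the dim level of HT, and no fold is given. Where each value beneath the dim level was set to that level, the difference became -0.0595. Of the 5 genes counted as different, NLRC4 was the one with the smallest difference. NOD1 and NOD2, sensors of bacterial peptidoglycan, did not reach the dim level, with values of 3.32 and 3.24 in SUDHL6 and of 3.69 and 3.28 in HT. RIPK2, the kinase through which both signal, reached it, at 7.38 and 7.10. NLRP3 was listed with exactly the same value, 2.74, on both arrays, as were 681 of 22011 probe sets in all, and this agreement is not a measurement of equality. NLRC5, an activator of class I antigen presentation genes, stood at 4.03 and 3.91, NLRC3 at 4.80 and 4.55 and NLRX1, a mitochondrial member, at 4.50 and 4.51. The probe set that NLRP1 shares with another locus stood at 3.61 and 3.66.

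Among the genes that work with these receptors, single large differences lay in both directions. AIM2, a sensor of cytosolic DNA that forms an inflammasome, was 14.7-fold higher in SUDHL6, at 9.31 against 5.43. IFI16, its relative and a DNA sensor too, was 5.97-fold higher in SUDHL6, at 9.53 against 6.95. IL18, a cytokine that inflammasomes activate, lay on the other side, with 6.57 in HT and 2.29 in SUDHL6, a factor of at least 6.77. The 10 nearest genes of IL18 had a median difference of -1.10, in the same direction, and what part the region has was not tested. NEK7, a kinase that NLRP3 needs, was 2.66-fold higher in HT, at 7.24 against 5.83. The other 11 of the 15 genes with a value were not counted as different. The gene of its effector caspase, CASP1, is not analysed here.

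The largest difference among the innate sensing genes was that of IFIH1, which encodes a cytosolic sensor of long double-stranded RNA. It stood at 5.99 in HT and 2.24 in SUDHL6, which is below the dim level, and was at least 4.51-fold higher in HT. Its neighbours on chromosome 2 lay on both sides, with 5 of the 10 flanking genes higher in SUDHL6, 4 lower and 1 equal, but neither of the 2 counted as different shared its direction. GCA, next to it, stood at 4.97 in SUDHL6 and 2.36 in HT, SLC4A10 at 6.78 and 2.49, both counted as higher in SUDHL6, and FAP, on the other side, reached the dim level in neither line. The 10 flanking genes had a median difference of 0.07. The 2 related helicases did not move by as much. DDX58 (now RIGI), which binds short RNA with a triphosphate end, was below the dim level in both lines, at 3.04 in SUDHL6 and 3.65 in HT, and DHX58, a regulator of both, stood at 4.43 and 4.48. EIF2AK2, the kinase that stops translation on double-stranded RNA, stood at 5.81 and 6.64, and its difference of -0.83 falls short of the threshold. A probe set it shares with ARL14EP differed by -0.58. ZBP1, a sensor of Z-form nucleic acid, was below the dim level, at 3.69 and 3.58. Over these 5 sensors the median difference was -0.61, with 4 values lower in SUDHL6 and 1 counted as different. That median is the difference of DDX58 itself, below the dim level in both lines, so its size is not established.

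The adaptors, kinases and transcription factors on which the cytosolic sensors converge all reached the dim level in both lines, and 0 of 7 were counted as different. MAVS, the mitochondrial adaptor of the RNA helicases, stood at 5.29 in SUDHL6 and 5.15 in HT. TMEM173 (now STING1), the adaptor of cytosolic DNA sensing, stood at 4.53 and 4.49. The kinase genes differed in opposite directions, TBK1 with 7.78 and 8.41 and IKBKE with 5.31 and 4.75, each by less than 1. IRF3 stood at 4.94 and 5.29, but a probe set it shares with BCL2L12 differed in the other direction, at 5.56 and 5.27. IRF5 stood at 4.30 and 4.24 and IRF7 at 5.22 and 5.13. CGAS, the enzyme that makes the messenger that activates STING, was at least 2.82-fold higher in HT, at 5.31 against 2.68. OAS2 makes the messenger that starts RNA decay when viral RNA is bound. It was higher in SUDHL6 by at least 1.85-fold, at 5.0 against 3.43. These were the 2 counted as different among 22 further genes of RNA and DNA sensing, and the median of those 22 was -0.10.

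Genes of the interferon system, which act on and are induced by these pathways, were also split. Of 32 with a value, 4 were counted as higher in HT, where 4.62% of all genes were, and 2 in SUDHL6, where 3.5% were. The median difference was -0.21, and that of all genes was -0.04. With quantile normalization or loess the counts were 4 and 3, and the medians were -0.10 and -0.095. IFIT3, of the antiviral IFIT family, stood at 4.64 in HT and 1.79 in SUDHL6, a factor of at least 1.78. IFIT5, of the same family, stood at 4.62 in HT and 1.83 in SUDHL6, a factor of at least 1.75. Their neighbours in the same cluster, IFIT1 at 1.77 in SUDHL6 and 3.03 in HT and IFIT2 at 2.95 and 3.86, did not reach the dim level. All 4 had the lower value in SUDHL6, and IFIT1 and IFIT2 were named after their values were seen. The 10 nearest genes of each, with the other IFIT genes not left out, had a median difference of -0.68, in the same direction. What part the region has was not tested. EPSTI1 (3.0 and 4.89) and BST2 (4.03 and 5.08), named after their values were seen, were the other 2 counted for HT. MX2, which blocks the nuclear entry of some viruses, stood at 6.20 in SUDHL6 against 3.38, a factor of at least 4.23. SP110, a nuclear body protein, was 4.57-fold higher in SUDHL6, at 8.18 against 5.98.

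**Figure D3:**
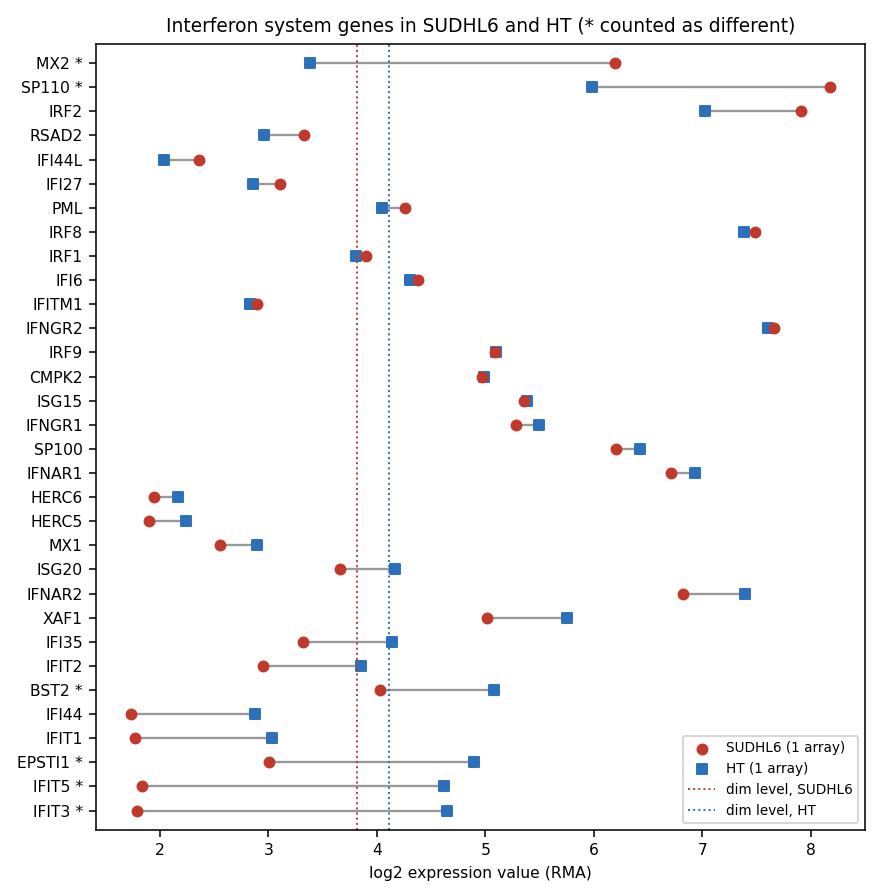
Log2 expression value of each of 32 genes of the interferon system on the SUDHL6 array (red circles) and the HT array (blue squares), ordered by difference, with the dim level of each line dotted. Asterisks mark the 6 genes counted as different: MX2 and SP110 at the top are higher in SUDHL6, and IFIT3, IFIT5, EPSTI1 and BST2 are higher in HT.

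Since IFIH1 and several interferon-induced genes differed, the promoters were read for 2 motifs known to bind interferon regulatory factors. The sequences are those of RefSeq, build GRCh38.p14, which held promoters of 27 of the 41 genes on the list. They were read over the 250 bases before the start of the gene, on both strands. The interferon-stimulated response element was searched as GAAANNGAAA, and the composite element of an ETS factor with an interferon regulatory factor as GGAANNGAAA. These patterns differ in 1 letter, do not match the same 10 bases, and can overlap. The first was found in 3.02% of 35116 promoters and the second in 2.41%. Counted by gene, the shares were 3.71% and 2.99% of 27305 genes. The promoters of IFIH1, the gene with the largest difference, MYD88, the other gene on the list with the first motif, and TLR4, counted as higher in HT, are shown from the distal end to the start, with matches in capitals.

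IFIH1, chr2:162318685-162318934, minus strand, first motif: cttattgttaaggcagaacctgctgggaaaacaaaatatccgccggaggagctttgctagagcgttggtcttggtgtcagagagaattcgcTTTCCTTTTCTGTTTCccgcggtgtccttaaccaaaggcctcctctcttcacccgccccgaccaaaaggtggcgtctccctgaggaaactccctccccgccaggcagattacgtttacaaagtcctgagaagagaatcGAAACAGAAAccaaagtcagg
MYD88, chr3:38138411-38138660, plus strand, first motif: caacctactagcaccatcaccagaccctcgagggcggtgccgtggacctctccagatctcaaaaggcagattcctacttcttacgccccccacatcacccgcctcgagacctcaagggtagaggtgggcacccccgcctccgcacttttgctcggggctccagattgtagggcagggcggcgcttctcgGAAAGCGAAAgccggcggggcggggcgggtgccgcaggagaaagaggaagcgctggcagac
TLR4, chr9:117704153-117704402, plus strand, second motif: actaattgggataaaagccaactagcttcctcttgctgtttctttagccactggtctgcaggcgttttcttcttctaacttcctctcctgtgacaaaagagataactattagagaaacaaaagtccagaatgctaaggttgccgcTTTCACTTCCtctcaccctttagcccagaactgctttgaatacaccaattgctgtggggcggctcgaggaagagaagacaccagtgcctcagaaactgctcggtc

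IFIH1 held 3 matches to the first motif, which begin 159, 153 and 21 bases before the start of the gene. The first 2 of these overlap. MYD88 held 1 match, 61 bases before the start, and its values were 5.98 and 6.0. The second motif was found for TLR4, 105 bases before the start, and also for DDX58 and for 1 of the 4 promoters of IRF5. Neither motif was found in the promoters of TLR6 and NLRC4 in this window. TLR1, also counted as higher in SUDHL6, had no promoter among the sequences used and was not read. Of the further pathway genes, MX2, OAS2 and IKBKB, counted for SUDHL6, were not read for the same reason. Nor were IL18, CGAS and NEK7, counted for HT. Of the genes with a promoter and a value among the 38 and the wider lists, 5 of 10 counted as higher in HT held the first motif (IFIH1, IFIT3, IFIT5, BST2 and EPSTI1), 1 of 7 counted as higher in SUDHL6 (AIM2), and 18 of 103 not counted as different. Those 18 include DDX60, IFIT1, MX1, IFI27, IFI44, IFI44L, IFITM1, RSAD2, HERC5 and CXCL10. These reached the dim level in neither line and so could not be counted at any difference. The second motif was held by 2 of the 10 (TLR4 and IFIT3), 2 of the 7 (SP110 and CD83) and 11 of the 103. A gene held a motif where any of its promoters did. The wider lists include genes listed because interferon induces them, so these shares are not independent of how the lists were chosen. For comparison, a promoter of IFIT3, higher in HT, and that of AIM2, higher in SUDHL6, follow.

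IFIT3, chr10:89332279-89332528, plus strand, first motif: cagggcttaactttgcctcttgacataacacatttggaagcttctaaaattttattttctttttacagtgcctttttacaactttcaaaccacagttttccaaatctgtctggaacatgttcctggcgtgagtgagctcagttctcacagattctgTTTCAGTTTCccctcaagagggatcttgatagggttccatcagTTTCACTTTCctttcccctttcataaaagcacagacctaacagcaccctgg
AIM2, chr1:159076767-159077016, minus strand, first motif: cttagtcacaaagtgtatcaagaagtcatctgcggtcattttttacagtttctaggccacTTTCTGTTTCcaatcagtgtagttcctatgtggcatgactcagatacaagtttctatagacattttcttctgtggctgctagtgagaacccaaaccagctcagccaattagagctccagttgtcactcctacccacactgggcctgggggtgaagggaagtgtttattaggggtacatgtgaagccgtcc

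In this promoter IFIT3 had the first motif 94 and 51 bases before the start, while a match to the second, 45 bases before it, overlaps the last of these and is not marked beyond that overlap. AIM2 had the first motif 190 bases before the start. A match describes letters only and shows no binding.

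At the end of the NF-kB branch, 2 of 21 subunit and target genes were counted as different, both in SUDHL6. REL, an NF-kB subunit of B cells, was 5.0-fold higher, at 8.63 against 6.31, and CD83, an activation marker of B and dendritic cells, 4.65-fold higher, at 7.70 against 5.48. The median of the 21 was 0.05. Of the 21, 14 reached the dim level in both lines and 7 in neither, 11 had the higher value in SUDHL6 and 10 the lower. Across the 6 lists of further pathway and target genes, 19 of 117 genes with a value (16.2%) were counted as different, against 8.12% of all genes. Of these, 8 were counted for SUDHL6 and 11 for HT. Nothing particular to the lists is read from these shares.

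**Figure D4:**
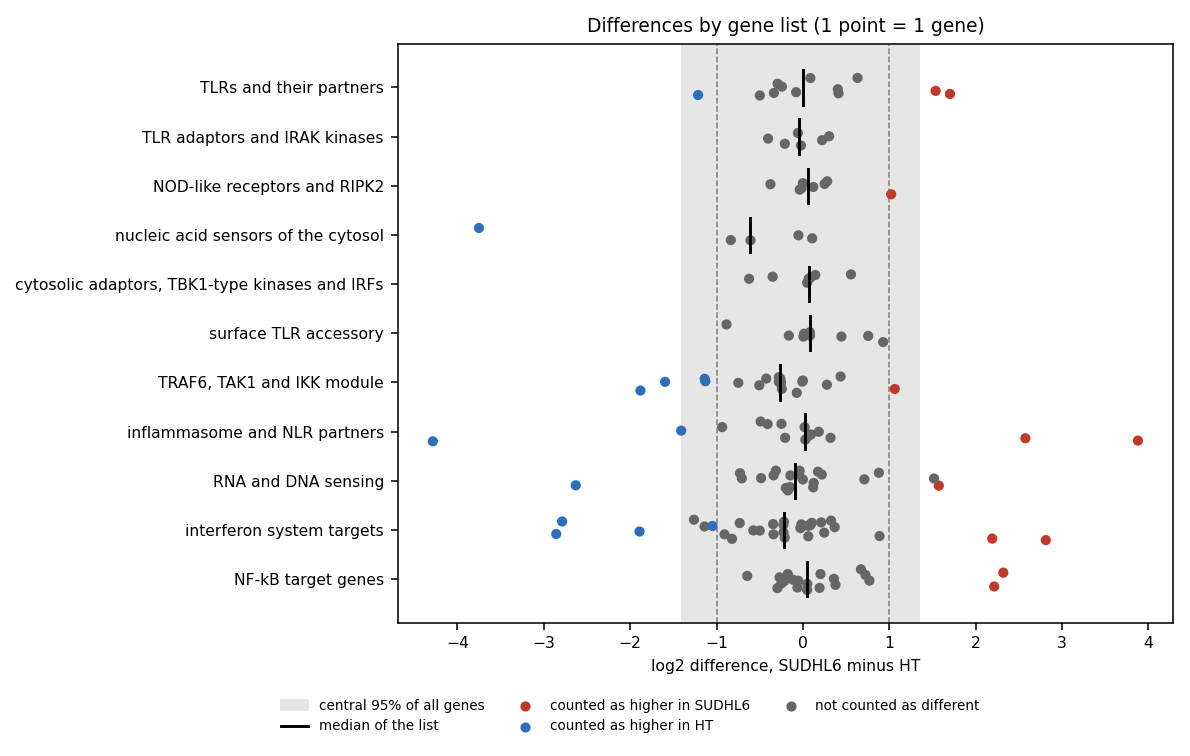
Log2 difference, SUDHL6 minus HT, of each gene in the 5 groups of innate sensing genes (top) and the 6 lists of further pathway and target genes. Each point is 1 gene, black bars are list medians, the grey band holds the central 95% of all 14232 genes (-1.40 to 1.34) and dashed lines mark a difference of 1. The medians lie between -0.27 and 0.08 except that of the cytosolic sensors, at -0.61, which is the difference of DDX58, dim in both lines. IFIH1, IL18, CGAS, IFIT3 and IFIT5 lie far to the left, and AIM2, MX2 and IFI16 far to the right.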

How the data were processed

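The authors deposited log2 expression values after RMA, and the submitters' processing notes name RMA and the Affymetrix Expression Console. No version, setting or build is given in the sources used here. RMA tends to shrink differences near background. Of 22011 probe sets, 14432 name 1 gene in the platform annotation, 2408 several, and 5171 are unnamed here. Symbols were updated by gene number to RefSeq (GRCh38.p14). The members and lists were chosen with earlier results of these data known. The rule for named genes took every member with a value, and of each further list up to 4 genes counted as different with the largest difference, or the 2 with the highest mean. CD14, LY86, IKBKB, EPSTI1, BST2, IFIT1 and IFIT2 and the named cell type markers fall outside it and were chosen after their values were seen. With 1 array per line no test was run. Alternatives were other dim levels, scalings, probe set choices, a threshold of 0.58, and subtraction of the median of the 10 nearest genes. Python 3.11.15, pandas 2.3.3 and statsmodels 0.14.6 were used.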

Additional observations from a re-analysis of the deposited data

How the results depend on the processing

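TLR1, TLR6, TLR4 and IFIH1 were counted as different, each in the same direction, under all 11 alternatives. NLRC4 was not counted with the dim level at the 99th percentile, with probe sets naming several genes included (its difference stayed 1.02), or with the neighbour median subtracted (0.88), and turned to -0.0595 with values raised to the dim level. With a threshold of 0.58, 4 genes on the list were counted as higher in SUDHL6 (TLR10 added) and 4 in HT (EIF2AK2 and TBK1 added), against 7.57% and 10.8% of all genes, while the further pathway genes gave 15 for SUDHL6 and 18 for HT. EIF2AK2 was also counted with the neighbour median subtracted, at -1.29. The median difference over the list was -0.30 with values raised to the dim level, because any pair of dim values then takes the difference of the dim levels, and 0.10 with the neighbour median subtracted; the cause of the latter was not tested. The share of all genes counted as higher in SUDHL6 and in HT was 4.05% and 3.99% with quantile normalization, and with loess 4.1% and 3.95%, so which side holds more turns with the scaling. No paired analysis was run, as the labels pair no samples between the lines, and each line has 1 array. Signal near background limits the values below the dim level, whose order and size are not established.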
